A study of Mus musculus with 8 samples.

Results

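RNA levels of 9 genes of costimulation and dendritic cell maturation (Cd40, Cd80, Cd86, Cd83, Cd274, Fscn1, Flt3, Icosl and Tnfsf9) were examined in osteoclast precursor cells, which are macrophages grown from mouse bone marrow that can fuse into bone-resorbing osteoclasts. The genes were found by their symbols in the deposited expression table, and all 9 were among its 25124 genes. Poly-A RNA of 8 cultures was sequenced, in 4 groups of 2. All cells were first kept for 16 h in 5 ng/mL M-CSF, the growth factor that keeps macrophages alive, and then grown for 3 days in M-CSF. All groups then received 30 ng/mL M-CSF for the 48 h of treatment. The groups had M-CSF alone (no PRDX1 + no RANKL, called untreated here), 200 nM PRDX1 added (PRDX1 + no RANKL), 100 ng/mL RANKL added (no PRDX1 + RANKL), or both (PRDX1 + RANKL). RANKL is the cytokine that drives osteoclast formation. PRDX1 is peroxiredoxin 1, a peroxide-reducing enzyme that can also leave the cell and act on innate immune receptors. It was given as a His-tagged recombinant protein made in E. coli, with a step to remove endotoxin. The labels give the mice as C57BL/6 aged 6 to 8 weeks, while the culture methods name male ICR mice aged 6 weeks. The labels do not say whether the 2 cultures of a group came from separate animals, so the p-values measure only the spread between these libraries.

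Naive T cells respond fully to an antigen only when the presenting cell also carries costimulatory ligands. CD80 and CD86 bind CD28 and the inhibitory receptor CTLA-4, ICOSL binds ICOS, and 4-1BBL (encoded by Tnfsf9) binds 4-1BB, while PD-L1 (encoded by Cd274) binds PD-1 and restrains T cells. CD40 receives the reverse signal from T cells, CD83 marks mature dendritic cells, fascin (Fscn1) bundles actin in their processes, and FLT3 is the growth factor receptor of dendritic cell precursors.

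Levels are given in FPKM, which are reads divided by transcript length and by the total of the library. A gene was called higher or lower when limma on log2(FPKM + 1) gave a Benjamini-Hochberg adjusted p under 0.05 over the 11700 genes tested together with a fold change of at least 1.5 on that scale. The interaction of PRDX1 and RANKL is the log2 change by PRDX1 with RANKL minus the log2 change by PRDX1 without it. Log2 fold changes are given with their standard error (SE). They understate the change of genes with low FPKM. The libraries held 24542578 to 41712973 reads on genes. Of the 9 genes, 8 reached a mean of 0.5 FPKM and were tested, and Flt3 did not.

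Cd274 and Fscn1 rose with PRDX1 both without and with RANKL, and both also rose with RANKL alone, where Fscn1 fell under 1.5-fold in 4 of 16 other settings. Icosl, Tnfsf9 and Cd83 fell with RANKL alone, and all 3 had more FPKM with PRDX1 + RANKL than with RANKL alone, an increase that passed the call for Icosl and Tnfsf9. Cd80 rose with RANKL whether or not PRDX1 was present. Cd40 and Cd86 passed the call in none of the comparisons.

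**Figure D1:**
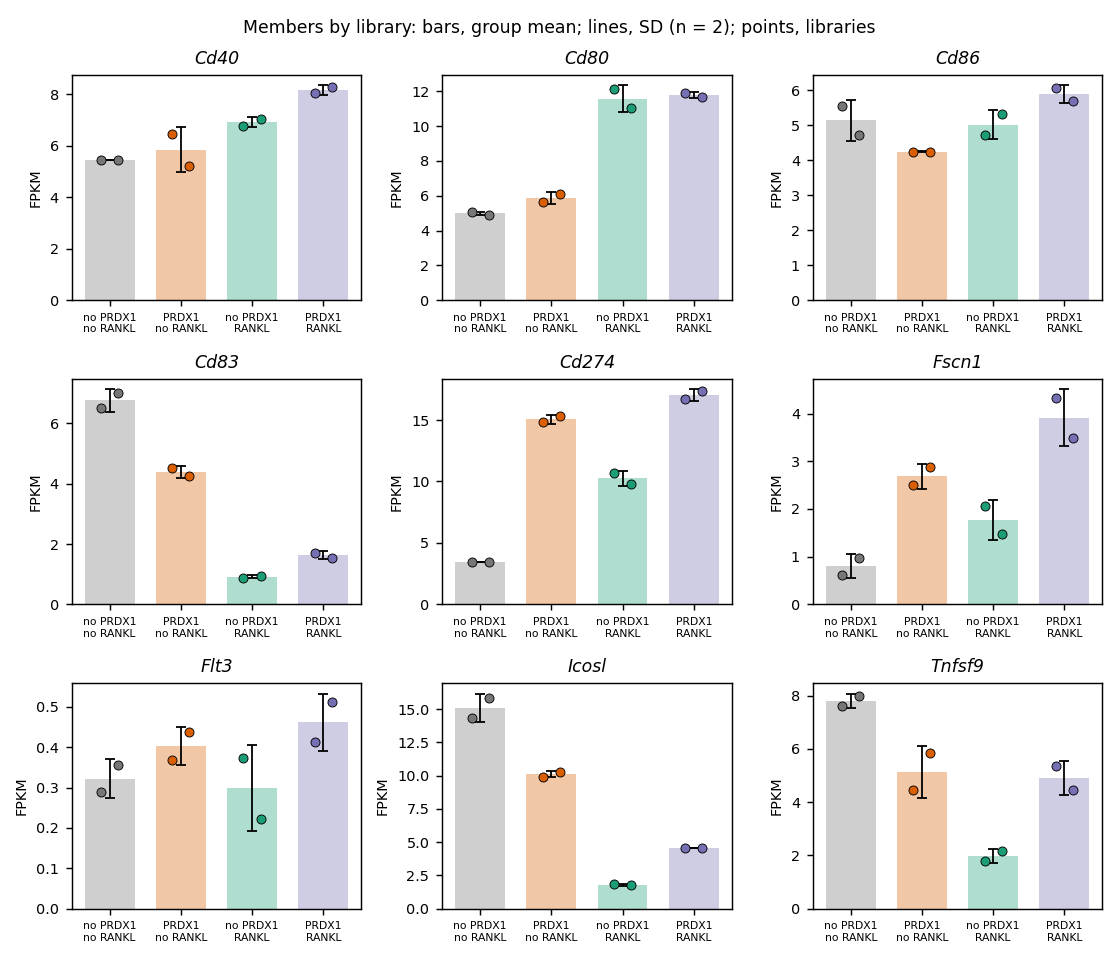
FPKM of the 9 genes in the 4 groups. Bars are group means, lines the SD of 2 libraries and points the libraries. Cd274 was lowest in the untreated libraries (3.45 and 3.46 FPKM), and Icosl, Tnfsf9 and Cd83 were lowest with RANKL alone. The vertical axes start at 0 and differ between genes.

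By PRDX1 without RANKL, 2 of the 8 tested genes were called higher and 0 lower, when 3.80% of all tested genes were called higher and 1.99% lower. With a pseudocount of 0.1 the count was 4, with Cd83 and Tnfsf9 added as lower, and with voom on recovered reads it was 5, with Cd83, Tnfsf9 and Icosl added as lower. By PRDX1 with RANKL, 4 were called higher and 0 lower, beside 6.03% and 4.17% of all tested genes, and the count was 5 with a pseudocount of 0.1 and with voom, which added Cd83 as higher. RANKL without PRDX1 gave 3 higher and 3 lower, beside 11.8% and 9.96%, and RANKL with PRDX1 gave 1 higher and 2 lower, beside 4.52% and 3.98%. With quantile normalization and with upper quartile scaling, RANKL without PRDX1 called 5 of the 8 genes, without Fscn1. Over all tested genes it then called 1088 higher and 1322 lower, or 1153 higher and 1302 lower, in place of 1383 higher and 1165 lower. The interaction was called positive for 3 and negative for 1, beside 4.50% and 4.35%. The median log2 fold change of the 8 genes by PRDX1 was -0.073 without RANKL and 0.57 with RANKL, and that of all tested genes was -0.039 and -0.057. The RANKL comparison without PRDX1 and the PRDX1 comparison with RANKL use the same 2 libraries with RANKL alone.

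The sequence just before the transcript start is shown for Cd80, Cd274 and Icosl, since Cd80 holds the only motif match found, Cd274 had the largest log2 change by PRDX1 and Icosl the largest by RANKL. The 250 bases are from RefSeq annotation of GRCm38.p6, 5′ to 3′ on the plus strand: chr16:38458683-38458932, chr19:29367188-29367437 and chr10:78069118-78069367. Capitals mark the only motif match.
Cd80: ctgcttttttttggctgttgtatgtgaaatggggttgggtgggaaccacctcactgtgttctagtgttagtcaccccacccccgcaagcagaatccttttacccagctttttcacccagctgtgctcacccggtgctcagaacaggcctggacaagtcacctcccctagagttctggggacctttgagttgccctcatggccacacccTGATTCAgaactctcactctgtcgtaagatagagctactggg
Cd274: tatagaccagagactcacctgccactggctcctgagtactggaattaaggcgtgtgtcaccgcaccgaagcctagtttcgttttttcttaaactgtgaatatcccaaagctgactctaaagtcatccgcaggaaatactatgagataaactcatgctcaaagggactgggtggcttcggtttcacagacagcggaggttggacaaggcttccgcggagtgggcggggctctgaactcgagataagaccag
Icosl: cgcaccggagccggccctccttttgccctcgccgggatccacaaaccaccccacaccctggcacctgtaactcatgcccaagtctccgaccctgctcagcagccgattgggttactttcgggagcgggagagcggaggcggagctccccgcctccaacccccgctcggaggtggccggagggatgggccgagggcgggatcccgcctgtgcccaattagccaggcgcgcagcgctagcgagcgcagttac

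Of the 9 genes, 5 were in the promoter table (Cd80, Cd274, Fscn1, Flt3 and Icosl). Windows of 300 bases around the start were searched on both strands for the NF-kB consensus, the interferon-stimulated response element core (GAAA, any 2 bases, GAAA), the gamma-activated site TTCNNNGAA and the AP-1 motif TGANTCA. Among all 32851 promoters of that length, 4.51%, 3.44%, 8.30% and 7.81% hold them. The only match in the 5 promoters was TGATTCA, an AP-1 motif 42 to 36 bases before the start of Cd80, which overlapped none of the other motifs. A match of letters is a description and not a site of binding.

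Of the B7 ligands of CD28 and CTLA-4, Cd80 rose with RANKL and Cd86 passed no call. Cd80 (NM_009855, chr16:38458933-38486932 of mm10, plus strand) had 5.05 and 4.92 FPKM in the untreated libraries, 5.63 and 6.11 with PRDX1, 12.1 and 11.0 with RANKL, and 11.9 and 11.7 with both. All 4 libraries with RANKL lay above the 4 without it. Mean FPKM was 2.32-fold higher with RANKL alone than untreated, and limma gave a log2 fold change of 1.07 (SE 0.07, adjusted p = 8.72e-07) without PRDX1 and 0.90 (SE 0.07, adjusted p = 1.04e-05) with PRDX1. The libraries with RANKL alone and those with both overlapped, and the log2 change by PRDX1 with RANKL was 0.027 (95% interval -0.14 to 0.19, adjusted p = 0.797). Without RANKL that change was 0.20 (adjusted p = 0.0704).

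Cd86 (NM_019388, chr16:36603869-36666077, minus strand) lies on the same chromosome. It had 5.55 and 4.71 FPKM in the untreated libraries, 4.23 and 4.24 with PRDX1, 4.72 and 5.31 with RANKL, and 6.06 and 5.70 with both. The untreated libraries and those with RANKL alone overlapped, the libraries with PRDX1 alone were the lowest, and those with both were the highest. The log2 change by PRDX1 was -0.23 without RANKL (95% interval -0.43 to -0.021, adjusted p = 0.0929) and 0.19 with RANKL (95% interval -0.0094 to 0.40, adjusted p = 0.114). The difference between these changes was 0.42 (SE 0.13, adjusted p = 0.0416), which is under 1.5-fold. RANKL gave -0.026 without PRDX1 (adjusted p = 0.821) and 0.39 with PRDX1 (adjusted p = 0.00675, under 1.5-fold).

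Both FPKM values are per transcript length, so their ratio within a library can be read as relative transcript abundance. The Cd80 to Cd86 ratio was 0.909 and 1.04 in the untreated libraries, 1.33 and 1.44 with PRDX1, 2.57 and 2.08 with RANKL, and 1.96 and 2.05 with both. The 3 treated groups did not overlap with the untreated one. Both libraries with RANKL alone lay above both libraries with PRDX1 + RANKL.

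**Figure D2:**
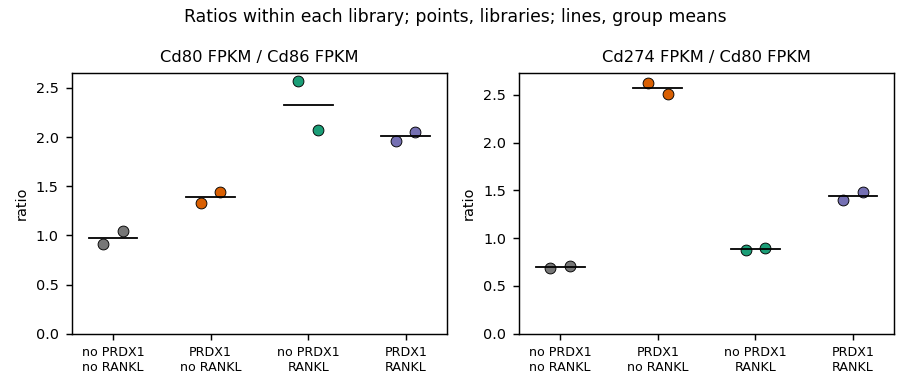
Ratio of Cd80 FPKM to Cd86 FPKM (left) and of Cd274 FPKM to Cd80 FPKM (right) within each library. Points are libraries and lines group means. The left ratio was highest with RANKL alone (2.57 and 2.08) and the right ratio with PRDX1 alone (2.63 and 2.51).

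Icosl had the highest untreated level of the 9 genes. The gene (NM_015790, chr10:78069368-78079525, plus strand) had 14.3 and 15.8 FPKM untreated, 9.92 and 10.2 with PRDX1, 1.82 and 1.73 with RANKL, and 4.57 and 4.55 with both. The 4 groups were ordered without overlap, from untreated through PRDX1 and PRDX1 + RANKL down to RANKL alone. RANKL alone left 11.8% of the untreated mean, with a log2 fold change of -2.53 (SE 0.08, adjusted p = 1.94e-09). Beside RANKL, PRDX1 raised Icosl 2.57-fold by mean FPKM, to 30.2% of the untreated mean, with a log2 fold change of 1.001 (SE 0.08, adjusted p = 4.26e-06). Without RANKL the change by PRDX1 was -0.54 (SE 0.08, adjusted p = 5.72e-04), under 1.5-fold, and it passed 1.5-fold with voom on recovered reads (-0.59) and without the first untreated library (-0.60). The interaction was 1.54 (SE 0.11, adjusted p = 8.84e-06).

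Tnfsf9, the TNF family ligand of 4-1BB, had a like order of groups. The gene (NM_009404, chr17:57105385-57107757, plus strand) had 7.61 and 7.99 FPKM untreated, 4.45 and 5.83 with PRDX1, 1.80 and 2.15 with RANKL, and 5.34 and 4.44 with both. The libraries with RANKL alone were the lowest and the untreated ones the highest, while those with PRDX1 alone and with both overlapped. RANKL alone left 25.3% of the untreated mean (log2 fold change -1.57, SE 0.12, adjusted p = 2.06e-06). With both stimuli the mean was 62.7% of the untreated mean, close to the 65.9% with PRDX1 alone, and PRDX1 raised the level beside RANKL by 0.98 on the log2 scale (SE 0.12, adjusted p = 1.30e-04). RANKL in the presence of PRDX1 gave -0.055 (95% interval -0.33 to 0.22, adjusted p = 0.745). The interaction was 1.51 (SE 0.17, adjusted p = 1.92e-04). Without RANKL the change by PRDX1 was -0.53 (SE 0.12, adjusted p = 0.00917), under 1.5-fold, and it passed 1.5-fold without the second library of PRDX1 + no RANKL (-0.69), with a pseudocount of 0.1 (-0.60) and with voom (-0.61). Without the first library of PRDX1 + no RANKL it was -0.37 (adjusted p = 0.0762), and without the second untreated library -0.50 (adjusted p = 0.0530). A long noncoding RNA gene, Gm11110, lies on the opposite strand at this locus, and its exons do not overlap those of Tnfsf9.

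Cd274, which encodes the inhibitory ligand PD-L1, had the largest change by PRDX1 without RANKL among these genes. The gene (NM_021893, chr19:29367438-29388094, plus strand) had 3.45 and 3.46 FPKM untreated, 14.8 and 15.3 with PRDX1, 10.7 and 9.83 with RANKL, and 16.7 and 17.4 with both. The groups did not overlap and were ordered untreated, RANKL, PRDX1, and both. PRDX1 alone raised the mean 4.36-fold, with a log2 fold change of 1.85 (SE 0.07, adjusted p = 7.38e-08), and RANKL alone raised it 2.96-fold, with 1.33 (SE 0.07, adjusted p = 8.36e-08). RANKL alone against PRDX1 alone gave a log2 difference of -0.52 (SE 0.07, adjusted p = 7.60e-05), under 1.5-fold. Beside RANKL the change by PRDX1 was 0.68 (SE 0.07, adjusted p = 2.65e-05), and the interaction was -1.17 (SE 0.09, adjusted p = 2.36e-05). RANKL added to PRDX1 gave 0.17 (95% interval 0.017 to 0.32, adjusted p = 0.0719). Exons of an antisense gene, AC119228.1, overlap those of Cd274, and reads were counted without regard to strand, so the reads of this pair cannot be told apart.

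The ratio of Cd274 to Cd80 was 0.684 and 0.704 in the untreated libraries, 2.63 and 2.51 with PRDX1, 0.879 and 0.892 with RANKL, and 1.40 and 1.48 with both. Since CD80 binds the inhibitory CTLA-4 as well as CD28, this ratio is not a balance of inhibition and stimulation. The groups did not overlap. PRDX1 alone had the highest ratio, and RANKL alone, with which both genes rose, had a ratio nearer to the untreated one.

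**Figure D3:**
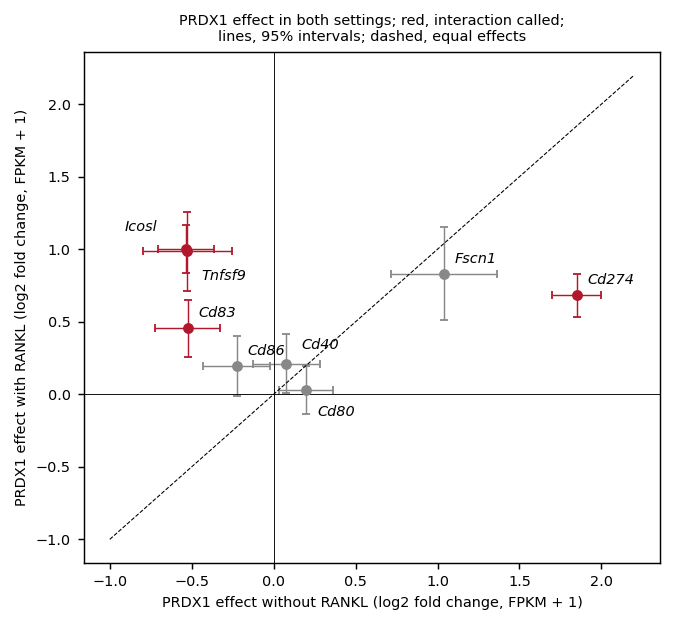
Log2 fold change by PRDX1 without RANKL (horizontal) and with RANKL (vertical) for the 8 tested genes, on the log2(FPKM + 1) scale. Lines are 95% intervals, the dashed line marks equal effects, and red marks genes with a called interaction. Icosl (-0.54 and 1.001), Tnfsf9 (-0.53 and 0.98) and Cd83 (-0.52 and 0.46) lie above the line, and Cd274 (1.85 and 0.68) lies below it.

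Cd40, the receptor for CD40 ligand of T cells, passed no call. The gene (NM_011611, chr2:165055636-165071654, plus strand) had 5.45 and 5.44 FPKM untreated, 6.45 and 5.22 with PRDX1, 6.77 and 7.04 with RANKL, and 8.03 and 8.29 with both. The libraries with both stimuli lay above all others, and those with PRDX1 alone lay on both sides of the untreated ones. The log2 change by PRDX1 was 0.078 without RANKL (95% interval -0.12 to 0.28, adjusted p = 0.564) and 0.21 with RANKL (95% interval 0.010 to 0.41, adjusted p = 0.0856). RANKL gave 0.29 without PRDX1 (adjusted p = 0.0171) and 0.43 with PRDX1 (adjusted p = 0.00406), both under 1.5-fold. PRDX1 + RANKL against untreated gave 0.51 (SE 0.09, adjusted p = 0.00124), also under 1.5-fold.

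Cd83 encodes a surface protein of mature dendritic cells. The gene (NM_009856, chr13:43785112-43803133, plus strand) had 6.50 and 7.02 FPKM untreated, 4.53 and 4.26 with PRDX1, 0.876 and 0.949 with RANKL, and 1.72 and 1.53 with both. The groups did not overlap and had the same order as those of Icosl. RANKL lowered Cd83 to 13.5% of the untreated mean without PRDX1 (log2 fold change -2.02, SE 0.09, adjusted p = 3.04e-08), and its log2 fold change with PRDX1 was -1.04 (SE 0.09, adjusted p = 1.31e-05). The log2 change by PRDX1 was -0.52 without RANKL (SE 0.09, adjusted p = 0.00166) and 0.46 with RANKL (SE 0.09, adjusted p = 0.00226), each under 1.5-fold, and the interaction was 0.98 (SE 0.13, adjusted p = 3.90e-04). Cd83 had 51 to 626 reads per library. Its change by PRDX1 with RANKL was 0.77 with a pseudocount of 0.1 and 0.82 with voom on recovered reads, past 1.5-fold in both. Under the same settings its change by PRDX1 without RANKL was -0.61 and -0.63, also past 1.5-fold.

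Fscn1 encodes fascin. The gene (NM_007984, chr5:142960355-142973189, plus strand) had 0.622 and 0.981 FPKM untreated, 2.51 and 2.88 with PRDX1, 2.07 and 1.47 with RANKL, and 4.33 and 3.49 with both. The groups did not overlap, and the untreated libraries were the lowest and those with both stimuli the highest. PRDX1 raised the mean 3.36-fold without RANKL (log2 fold change 1.04, SE 0.14, adjusted p = 5.08e-04) and 2.21-fold with RANKL (log2 fold change 0.83, SE 0.14, adjusted p = 0.00111). The interaction was -0.21 (95% interval -0.66 to 0.24, adjusted p = 0.520). RANKL alone gave 0.62 (SE 0.14, adjusted p = 0.00398), and this change fell under 1.5-fold, to 0.47 without the first untreated library, 0.46 without the first library of RANKL alone, 0.54 with quantile normalization and 0.58 with upper quartile scaling. With a pseudocount of 0.1 the change by PRDX1 without RANKL was 1.66 and that by RANKL alone 1.06.

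Flt3 (NM_010229, chr5:147330742-147400489, minus strand) was the lowest of the 9 genes. It had 0.288 and 0.356 FPKM untreated, 0.369 and 0.437 with PRDX1, 0.374 and 0.223 with RANKL, and 0.412 and 0.512 with both, from 28 to 78 reads per library. The untreated libraries and those with RANKL alone overlapped, and so did the libraries with PRDX1 alone and with both. Without the filter on low genes, limma gave log2 changes by PRDX1 of 0.09 (adjusted p = 0.492) without RANKL and 0.17 (adjusted p = 0.123) with RANKL. Flt3l, which encodes its ligand, had 4.30 and 3.97 FPKM untreated, 4.78 and 4.33 with PRDX1, 3.96 and 3.09 with RANKL, and 5.18 and 5.17 with both. Its log2 changes by PRDX1 were 0.11 (adjusted p = 0.457) without RANKL and 0.46 (adjusted p = 0.00503) with RANKL. Each was under 1.5-fold, and neither was called.

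**Figure D4:**
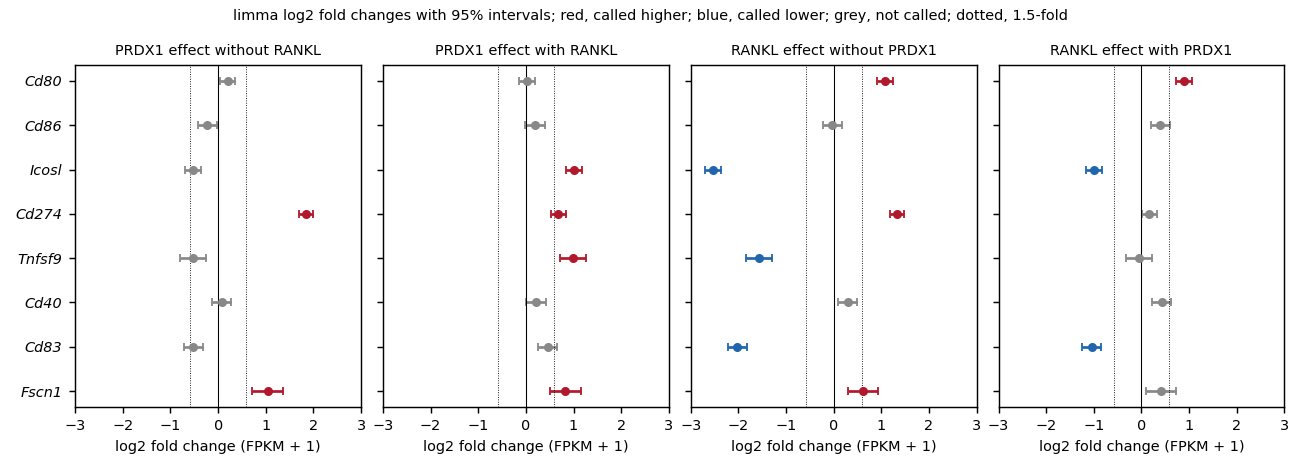
limma log2 fold changes, on the log2(FPKM + 1) scale, of the 8 tested genes in 4 comparisons. Points are estimates, lines 95% intervals and dotted lines 1.5-fold. Red marks genes called higher and blue genes called lower. PRDX1 called Cd274 and Fscn1 higher without RANKL, and these with Icosl and Tnfsf9 with RANKL.

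Most receptors that T cells use to bind these proteins were at or near 0 in the cultures. Ctla4 and Cd40lg were at 0 reads in all 8 libraries, and Icos and Pdcd1 did not exceed 0.074 FPKM. Cd28 and Tnfrsf9 were higher. Cd28 had 2.90 and 2.59 FPKM untreated, 1.28 and 1.22 with PRDX1, 0.782 and 0.665 with RANKL, and 0.929 and 0.979 with both. It fell with PRDX1 alone (log2 fold change -0.74, adjusted p = 4.24e-04) and with RANKL alone (-1.12), and its change by PRDX1 with RANKL was 0.18 (adjusted p = 0.168). Tnfrsf9, which encodes the 4-1BB receptor of the Tnfsf9 product, was at 0 reads in both untreated libraries, at 0.048 and 0.028 FPKM with PRDX1, at 1.75 and 1.99 with RANKL, and at 0.359 and 0.276 with both. The 4-1BB transcript was highest in the group in which Tnfsf9 was lowest, and with PRDX1 beside RANKL Tnfrsf9 was lower and Tnfsf9 higher than with RANKL alone. Tnfrsf9 reached the filter of 0.5 FPKM only through the libraries with RANKL alone. Its fitted change against them (log2 fold change -1.12, adjusted p = 2.67e-05) is therefore only a description.

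Ligands of the same families outside the 9 genes were also measured. Of 9 further B7 family genes, 7 were in the table, 2 passed the filter and neither was called by PRDX1 without RANKL (3.80% of all tested genes higher and 1.99% lower) or with RANKL (6.03% and 4.17%). Their log2 changes without and with RANKL were -0.52 and -0.29 for Vsir (adjusted p = 5.54e-05 and 0.00126). For Cd276 they were -0.086 and -0.19 (adjusted p = 0.333 and 0.0284). All were under 1.5-fold. Cd276 (B7-H3) rose with RANKL alone by 0.77 on the log2 scale, and Vsir (VISTA), an inhibitory B7 relative with 97.8 and 92.9 FPKM untreated and 50.7 and 52.9 with RANKL alone, fell by 0.87. Of 8 further TNF family ligands, 5 were tested. By PRDX1 without RANKL, with 3.80% of all tested genes called higher and 1.99% lower, Tnfsf8 (CD30 ligand) rose by 0.59, Tnfsf14 (LIGHT) fell by 0.71 and the other 3 were not called. Among these, Tnfsf13 (APRIL) had 0.53 (adjusted p = 8.57e-04, under 1.5-fold). With RANKL 0 of 5 were called (6.03% and 4.17% of all tested genes), and Tnfsf13b (BAFF) had 0.24.

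The list of CD40 signaling genes holds Cd40 itself, which passed no call, and other genes that are not particular to CD40. The list therefore does not measure signaling from CD40 alone. RANKL without PRDX1 called 9 of its 12 genes higher and 0 lower, beside 11.8% and 9.96% of all tested genes, with a median log2 fold change of 1.29 beside 0.096 for all tested genes. Traf1, an adaptor of TNF receptors, had 1.29 and 1.21 FPKM untreated and 58.3 and 62.6 with RANKL alone, and Birc3, an inhibitor of apoptosis, had 9.89 and 8.09 untreated and 83.8 and 76.4 with RANKL alone. By PRDX1 with RANKL, 0 were called higher and 1 lower (6.03% and 4.17% of all tested genes), Birc3 with a log2 fold change of -0.62, and the median was -0.29 beside -0.057 for all tested genes. By PRDX1 without RANKL, 2 were called higher and 0 lower (3.80% and 1.99% of all tested genes), Tnfaip3 (A20, a brake on NF-kB) with 0.98 and Traf1 with 0.75. With RANKL their changes by PRDX1 were -0.085 (adjusted p = 0.430) and -0.52 (adjusted p = 2.69e-04), and that of Traf5 was -0.51 (adjusted p = 0.00134). Each was under 1.5-fold, and none was called.

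Other genes of dendritic cell maturation and migration moved in both directions. Of 29 listed, 21 were tested, with Relb, Nfkb2, Traf1 and Birc3 shared with the CD40 signaling list. PRDX1 called 4 higher and 1 lower without RANKL (3.80% and 1.99% of all tested genes), and 7 higher and 4 lower with RANKL (6.03% and 4.17%), with medians of 0.23 and 0.23 beside -0.039 and -0.057 for all tested genes. Ccr7, the receptor that guides mature dendritic cells to lymph nodes, had 0.070 and 0.050 FPKM untreated, 1.08 and 0.914 with PRDX1, 0.668 and 0.693 with RANKL, and 2.12 and 2.56 with both, and rose with PRDX1 by 0.91 without and 0.99 with RANKL. Tnf rose with PRDX1 by 0.81 and 1.27. In the other direction, PRDX1 beside RANKL lowered Cd200, an inhibitory ligand of myeloid cells (log2 fold change -1.81), and Il4i1, a secreted amino acid oxidase (-1.04), and both were higher with RANKL alone than untreated by 2.70 and 2.25.

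The list of conventional dendritic cell lineage genes had 11 of 17 genes tested. PRDX1 called 2 higher and 1 lower without RANKL, beside 3.80% and 1.99% of all tested genes, with a median log2 fold change of -0.028 beside -0.039. With RANKL it called 3 higher and 0 lower, beside 6.03% and 4.17%, with a median of 0.38 beside -0.057. Irf8, a transcription factor of monocyte and dendritic cell development, had 47.8 and 50.3 FPKM untreated, 59.5 and 59.4 with PRDX1, 7.77 and 7.72 with RANKL, and 23.9 and 25.4 with both. Its libraries with PRDX1 + RANKL lay above those with RANKL alone, as for all of the 9 genes except Cd80. Id2, an inhibitor of basic helix-loop-helix factors, and Itgax, the integrin CD11c, rose with PRDX1 by 1.85 and 1.23 without RANKL and by 1.13 and 0.81 with it. Cx3cr1, the fractalkine receptor, fell by 0.96 with PRDX1 alone. With RANKL its change by PRDX1 was 0.38 (adjusted p = 0.00159, under 1.5-fold), and the interaction was 1.34 (adjusted p = 1.14e-05). Among 12 actin bundling genes, with Fscn1 itself included, 8 were tested. PRDX1 called Fscn1 and Fmnl2 (0.61) higher without RANKL (3.80% of all tested genes), with a list median of 0.24 beside -0.039 for all tested genes. With RANKL it called Fscn1 alone higher (6.03% of all tested genes), with a list median of -0.14 beside -0.057. Actn1 had 0.48 and -0.31 and Lcp1 had -0.41 and -0.21 without and with RANKL, each under 1.5-fold.

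**Figure D5:**
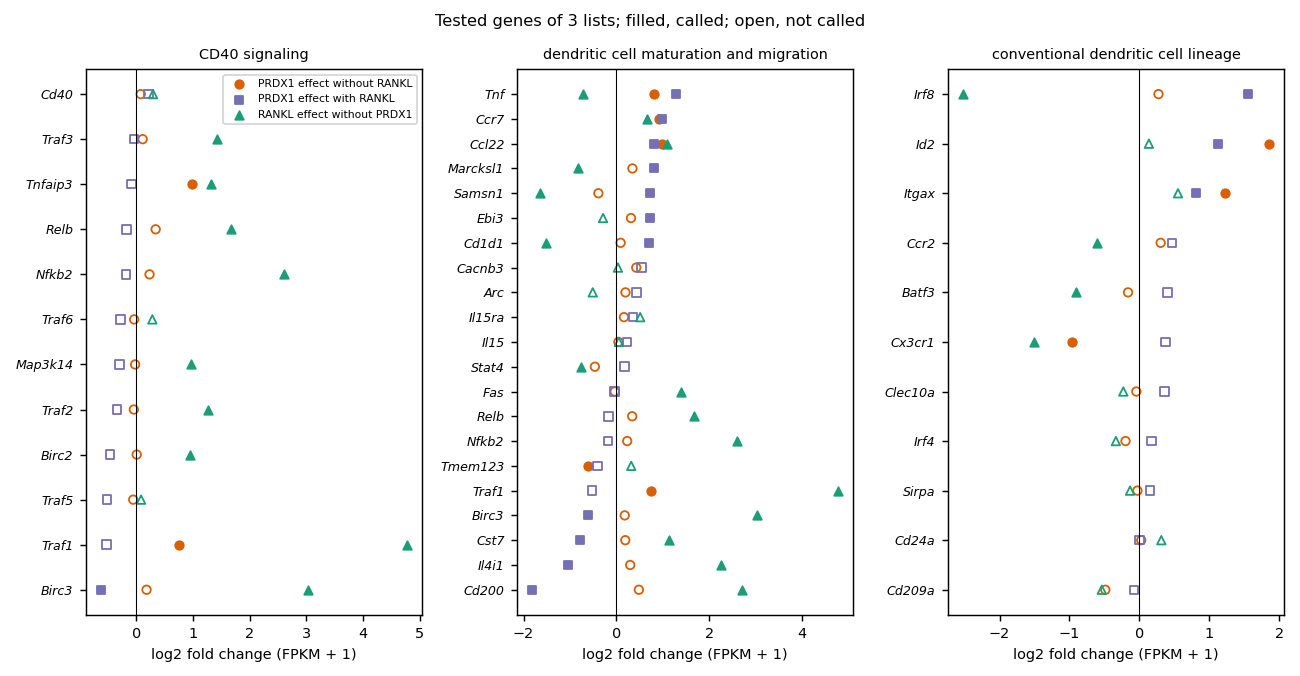
Log2 fold changes, on the log2(FPKM + 1) scale, of the tested genes of 3 lists by PRDX1 without RANKL (circles), PRDX1 with RANKL (squares) and RANKL without PRDX1 (triangles). Filled symbols were called and open ones were not. In the CD40 signaling list RANKL called 9 of 12 genes higher, and Cd200 in the maturation list had the values 0.48, -1.81 and 2.70.

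The genes whose levels followed each of the 8 tested genes most closely were found by Pearson's r of log2(FPKM + 1) over the 8 libraries, which are only 4 groups, and r is given as a description. Cd83 was followed by Fdft1 (r = 0.9997), an enzyme of cholesterol synthesis, and by Evi2b and Tubb2a (each 0.998). Icosl was followed by the endocytic adaptor Dab2, by Cd93 and by the lysosomal enzyme Galc (each 0.998). For Tnfsf9 they were Inpp4a (0.990), Kctd2 (0.987) and Akna (0.984). Cd274 had Morc2a (0.993), the interleukin-1 receptor antagonist gene Il1rn (0.992) and Csf2rb (0.989), the common beta chain of the GM-CSF receptor. Fscn1 had the interferon-induced gene Ifit1 (0.986), Coq10b (0.980) and H2-Q8 (0.977), whose reads may be shared with related class I genes. Cd80 had Reep3 (0.997), Vcan and Calcrl (each 0.996). Cd40 had Il15ra (0.994), Fnbp4 and the interferon-induced GTPase gene Gbp5 (each 0.963). The closest genes to Cd86 reached less, with Enkd1 (0.929), Mir7045 (0.928) and H2afy (0.926).

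Markers of the cell types that could be in the cultures were summed in FPKM per library. In bulk RNA, fewer cells of a type and less RNA per cell cannot be told apart. All 7 macrophage markers were detected, and their sum was 15264 to 17017 untreated, 16145 to 16602 with PRDX1, 9710 to 10132 with RANKL, and 13101 to 13494 with both. The libraries with both stimuli lay above those with RANKL alone, as for all of the 9 genes except Cd80. Lyz2, with 8326 to 14982 FPKM, made up most of that sum. The 12 markers of conventional dendritic cells include Flt3, and all were detected in every library except Kit, at 0 in 1 untreated library. They had sums of 58.4 to 60.5, 76.8 to 78.4, 18.5 to 19.4 and 43.0 to 45.2 in the same order, most of them from Irf8 and Itgax, which macrophages also express. These markers did not move together. From untreated to RANKL alone, mean Irf8 fell from 49.0 to 7.75 FPKM, while Itgax rose from 5.36 to 8.34 and Zbtb46 from 0.092 to 0.395. The defining dendritic cell genes Zbtb46 (0.083 to 0.629 FPKM), Xcr1 (0.034 to 0.165) and Clec9a (0.015 to 0.203) were low in every library. Sums of plasmacytoid dendritic cell markers were 1.22 to 1.40, 2.87 to 3.51, 1.64 to 1.69 and 3.36 to 3.45, and those of neutrophils and their precursors were 7.50 to 11.6, 38.1 to 41.8, 15.5 to 15.7 and 33.2 to 36.1, higher in every library with PRDX1, as Fscn1 and Cd274 were. Most of the neutrophil sum came from S100a8 (3.15 to 18.0 FPKM) and S100a9 (3.55 to 21.5), while the defining gene Ly6g did not exceed 0.279 FPKM, from 8 reads at most. Stromal markers summed to 6.92 to 9.49, 15.2 to 15.5, 6.70 to 8.36 and 14.2 to 17.7, and B cell markers to 0.589 to 0.976, 1.59 to 2.13, 0.631 to 0.922 and 1.37 to 1.61. The stromal and B cell sums were likewise higher in every library with PRDX1. Cd3e of T cells and Ncr1 of NK cells were at 0 in all libraries, and the summed T cell markers, 1.46 at most, came mostly from Cd4. The part of these cell types in the changes of the 9 genes was not tested.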

How the data were processed

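Poly-A RNA libraries of 8 cultures were analysed from 1 deposited table. The authors used HOMER to count reads over exons of mm10 RefSeq genes (both strands, 1 transcript per gene) and deposited FPKM. The submitters' processing notes also list HISAT2 and DESeq2, with no version. Library totals of 27284653 to 46171819 were those at which dividing by the value of 1 read came nearest to whole reads. At these totals 100% of the genes checked were whole, within 0.1 plus the rounding error of the FPKM. Genes with many reads were not checked. A single limma fit (version 3.58.1, R 4.3.3) with a trended prior covered the 4 groups, on log2(FPKM + 1) of 11700 genes that reached a mean of 0.5 FPKM. This left 4 residual degrees of freedom. An exact permutation test of 2 against 2 libraries cannot give a p below 0.333. Replicates of a group differed by more than sampling noise (chi-square per degree of freedom 4.71 to 9.58).

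The genes and lists were chosen with earlier results of these data known. Named were all 9 genes, in each list up to 4 genes with the largest change by PRDX1 and genes that bind 1 of the 9, and the 3 genes most like each tested gene by correlation. The comparisons of RANKL with PRDX1 alone and of both with untreated, and the choice of printed promoters, were added after the data were seen. Alternatives were the pseudocount (0.1), the filter (none, or 1 FPKM), the normalization, voom on recovered reads, the replicate block and leaving out each library. Intervals of the fits are 95% intervals.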

Additional observations from a re-analysis of the deposited data

Results flagged for a closer look

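The change by PRDX1 differed between cultures with and without RANKL for 4 of the 8 tested genes, by limma's interaction term on log2(FPKM + 1) with a Benjamini-Hochberg adjusted p under 0.05 over all tested genes and a difference of at least 1.5-fold, which 4.50% of all tested genes passed upward and 4.35% downward. Cd86 passed the adjusted p alone (0.42, adjusted p = 0.0416). The difference, with RANKL minus without, was 1.54 for Icosl (adjusted p = 8.84e-06), 1.51 for Tnfsf9 (adjusted p = 1.92e-04), 0.98 for Cd83 (adjusted p = 3.90e-04) and -1.17 for Cd274 (adjusted p = 2.36e-05). For Icosl, Tnfsf9 and Cd83 both libraries with PRDX1 alone lay below both untreated libraries, and both with PRDX1 + RANKL lay above both with RANKL alone. For Cd274 both PRDX1 groups lay above their controls, and the change was smaller with RANKL.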

How the results depend on the processing

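Of 640 recomputed values of the 8 tested genes (40 values under 16 settings), 621 kept their direction and their side of the threshold, 9 came to pass it, 4 no longer passed it and 6 changed sign. The count of genes called by PRDX1 without RANKL moved from 2 to 4 with a pseudocount of 0.1, which added Cd83 (-0.61) and Tnfsf9 (-0.60), and to 5 with voom, which added Cd83 (-0.63), Icosl (-0.59) and Tnfsf9 (-0.61). Icosl passed with -0.60 without the first untreated library. With RANKL the count moved from 4 to 5 with a pseudocount of 0.1 and with voom, which added Cd83. The cause was not tested. The 6 sign changes came from leaving out a library and were of values that were not called. Cd40 by PRDX1 without RANKL ranged from -0.052 to 0.21 over the libraries left out (lowest without PRDX1 + no RANKL replicate 1), and Cd80 by PRDX1 with RANKL from -0.036 to 0.090 (lowest without the second library of RANKL alone). Cd86 by RANKL without PRDX1 ranged from -0.13 to 0.073, above 0 without the first untreated library (0.073) or the first with RANKL alone (0.044). Tnfsf9 by RANKL with PRDX1 ranged from -0.22 to 0.11, above 0 without the second library of PRDX1 alone (0.11) or of both (0.055).

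A replicate block changed 0 calls of these genes, and the counts stayed at 2 and 4 for PRDX1 without and with RANKL, 6 and 3 for RANKL without and with PRDX1, and 4 for the interaction. Deviations of same-numbered libraries correlated by 0.00847 to 0.0965 over 6 pairs of groups, so the numbers were not taken to pair the samples. These are the replicate numbers of the labels. The table header also carries folder numbers that differ from them, and a pairing by those was not tested. With 28 to 78 reads per library, Flt3 had the least depth of the 9 genes.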
